A study of Homo sapiens with 16 samples.

Results

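The effect of short hairpin RNAs (shRNAs) against PRRX1 on the transcriptome of Hs578 breast cancer cells was measured net of the response of the same cells to doxycycline alone. The measurement used all 8 Hs578 libraries, chosen by their labelled parental line, of the 16 RNA sequencing libraries in the study. They formed 4 groups: parental Hs578 cells with no shRNA, without and with doxycycline at 3 µg/ml (1 library each), and Hs578 cells carrying a Tet-inducible shRNA, named shPRRX1_1, shPRRX1_2 or shPRRX1_3, without and with the same dose (3 libraries each, 1 per hairpin). The other 8 libraries held the same 4 groups of the line TT642. The parental cells carried no control hairpin, and the sources used here give neither the duration of treatment nor whether a derived line was 1 clone.

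The net value of a gene was the doxycycline effect in the hairpin lines (the mean over the 3 hairpins, induced against uninduced) minus the log2 ratio of the induced to the uninduced parental library. It is an interaction of hairpin and doxycycline on the log2 scale. A gene that responds equally in hairpin and parental cells has a net value of 0. A value above 0 means that the gene was higher, relative to the parental response, in the hairpin lines. It can arise from a rise in the hairpin lines, from a lower level in the induced parental library, or from both. The term hairpin effect below is short for the doxycycline effect in the hairpin lines before the parental ratio is subtracted. It therefore also holds any response to doxycycline itself. Levels are counts scaled to library size (CPM) after normalization by trimmed mean of M-values, and they were not compared between genes. Adjusted p-values came from edgeR's quasi-likelihood test with Benjamini-Hochberg adjustment over all genes tested, with 0.05 as the threshold for a call.

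PRRX1 encodes a homeodomain transcription factor of embryonic mesenchyme, and in carcinoma cells it is known as an inducer of epithelial-mesenchymal transition and of invasive behaviour. In a Tet-inducible vector, doxycycline releases the repression of a promoter that then drives the shRNA, which directs cleavage and loss of the matching mRNA. Doxycycline is also an antibiotic that acts on ribosomes, including those of mitochondria, which is why parental cells given the drug are used as a reference.

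The libraries held 13461527 to 19139654 counts in Hs578. VIM, FN1, SPARC, AXL and ZEB1, genes of mesenchymal-like cells, were present in all 8 (VIM 1828 to 2502 FPKM, ZEB1 10.2 to 18.9 FPKM). ESR1, PGR, CDH1 and EPCAM did not exceed 0.438 FPKM, while ERBB2 stood at 11.4 to 20.3 FPKM. Of the markers of other cells, CDH5, MYOD1 and MYOG had no count in any Hs578 library, and PTPRC, CD3D, CD14, LYZ, VWF, SOX2 and STMN2 had at most 20 counts each. Mitochondrial genes took 2.16% to 2.79% of the counts in the 4 uninduced libraries, 4.16% in the induced parental library and 3.18%, 4.27% and 5.44% in the induced lines of hairpins 1, 2 and 3.

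In the hairpin lines, doxycycline changed 3974 of 12993 genes (30.6%), of which 1953 rose (15%) and 2021 fell (15.6%). Net of the parental pair, 2 genes of 12993 were called (0.0154%), SKA3 on the higher side and CLCA2 on the lower. Without adjustment, 1850 genes (14.2%) had a net p under 0.05, of which 1007 (7.75% of genes tested) were higher and 843 (6.49%) were lower. These unadjusted shares are the background for the net counts of gene lists below. For counts of list members that rose or fell in the hairpin lines, the background is the 15% and 15.6% above. At equal spread, 75% of the variance of a net value comes from the single parental libraries, whose spread was taken from the hairpin groups. Whether a parental ratio reflects doxycycline or this pair of cultures cannot be told apart, since each arm held 1 library.

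The number of called net values depended on the fit. With each derived line as a block, which its shared hairpin number allows, 36 genes were called. That fit left 2 residual degrees of freedom, against 4 without the block, and it raised the adjusted p of some genes, PRRX1 among them. Hs578 libraries of the same hairpin number shared little of their deviation from the group means (Pearson's r 0.16, -0.03 and -0.01). The p-values with the block are therefore given below only as an alternative. With variances still moderated but without the robust option, which allows for outlying variances, no gene was called (1861 had an unadjusted p under 0.05). DESeq2 called 177. Leaving out hairpin 1, 2 or 3 gave 32, 3 and 64 calls. Leaving out any 1 uninduced hairpin library gave no call (1495, 1715 and 1331 genes had an unadjusted p under 0.05 without that of hairpin 1, 2 and 3; DESeq2 was not run there), and leaving out the induced library of hairpin 1, 2 or 3 gave 164, 15 and 56. For the hairpin effect, the count of 3974 came to 577 without hairpin 2, 1578 without hairpin 3, 1696 without the uninduced library of hairpin 1, 2258 without that of hairpin 3 and 2210 without the induced library of hairpin 2.

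PRRX1, the target, was lower in each induced hairpin line and level in the parental pair. It stood in parental cells at 272 CPM without and 276 CPM with doxycycline. In the lines of hairpins 1, 2 and 3 it stood at 273, 212 and 246 CPM uninduced and 34.8, 67.5 and 47.2 CPM induced. The 3 induced libraries lay below all 5 others, a pattern that 13.8% of the genes tested showed. The hairpin effect was -2.29 (SE 0.22, adjusted p = 0.000514) on the log2 scale and PRRX1 fell by that test. Its net value was -2.32 (SE 0.42, adjusted p = 0.0833, or 0.176 with the line as a block), with a 95% interval of -3.26 to -1.38, and did not pass the threshold. With the single parental pair as reference for each, the per-hairpin net values were -2.99, -1.68 and -2.40, lowest for hairpin 1 and least low for hairpin 2. In bulk libraries, fewer cells with the transcript and less transcript per cell cannot be told apart.

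VAT1L, a gene named for its similarity to the vesicle amine transport protein VAT1, had the same shape. It stood in parental cells at 13.5 CPM without and 13.7 CPM with doxycycline. The hairpin lines stood at 14.2, 15.5 and 16.4 CPM uninduced and 3.003, 5.73 and 4.38 CPM induced, with the induced libraries below all 5 others. The hairpin effect was -1.82 (SE 0.19, adjusted p = 0.000372), a called fall. The net value was -1.85 (SE 0.36, adjusted p = 0.0819, or 0.0458 with the line as a block), and across hairpins it ran in the order of PRRX1, with -2.22, -1.44 and -1.90.

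**Figure D1:**
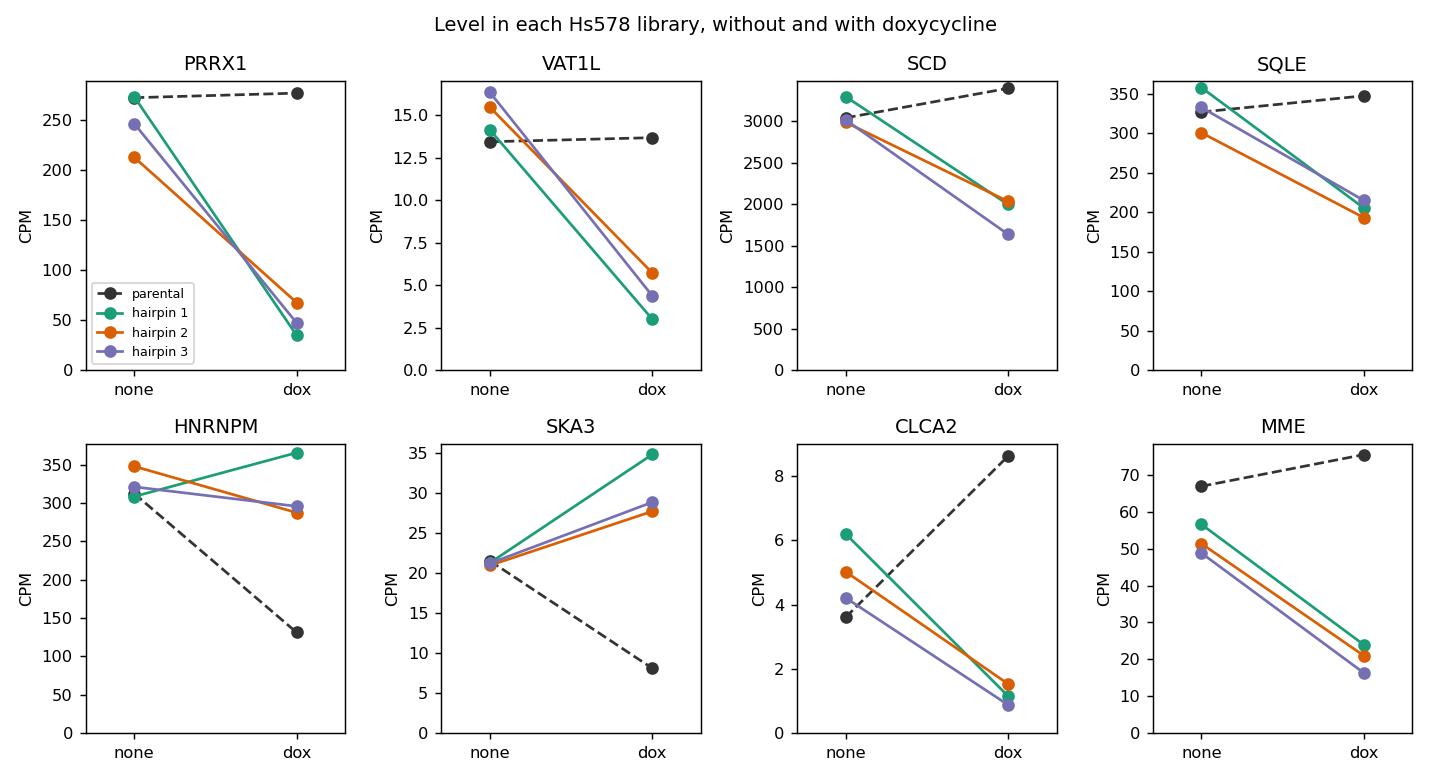
CPM (linear axis from 0) of 8 genes in the 8 Hs578 libraries, each line joining the uninduced (none) and induced (dox) library of the parental cells (dashed) or of 1 hairpin line. PRRX1 and VAT1L were level in the parental pair and lower in all 3 induced hairpin lines, while HNRNPM and SKA3 were lowest in the induced parental library.

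SKA3, a subunit of the complex that holds kinetochores to spindle microtubules, was the gene called higher. It stood in parental cells at 21.5 CPM without and 8.07 CPM with doxycycline. The lines of hairpins 1, 2 and 3 stood at 21.2, 20.9 and 21.2 CPM uninduced and 34.8, 27.7 and 28.8 CPM induced. The 4 uninduced libraries lay within 20.9 and 21.5 CPM, the induced parental library was the lowest of the 8 and the 3 induced hairpin libraries were the highest. SKA3 rose in the hairpin lines by 0.53 (SE 0.11, adjusted p = 0.00686), the parental ratio was -1.40, and the net value was 1.94 (SE 0.24, adjusted p = 0.0438).

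CLCA2, a surface glycoprotein of the chloride channel accessory family and a target of p53, was the gene called lower, at a low level. It stood in parental cells at 3.61 CPM without and 8.63 CPM with doxycycline and in the hairpin lines at 6.205, 5.03 and 4.21 CPM uninduced and 1.15, 1.53 and 0.876 CPM induced. Here the induced parental library was the highest and the 3 induced hairpin libraries the lowest. CLCA2 fell in the hairpin lines, with an effect of -2.14 (SE 0.25, adjusted p = 0.000583), beside a parental ratio of 1.23. The net value was -3.40 (SE 0.44, adjusted p = 0.0438). The net calls of SKA3 and CLCA2 were both lost without hairpin 2 (adjusted p = 0.141), without the uninduced library of hairpin 1 (0.151), 2 (0.142) or 3 (0.0742), and without robust moderation (0.0616). They were also lost with limma on log2(FPKM + 1) (adjusted p = 0.106 for SKA3 and 0.0872 for CLCA2) and on log2(FPKM + 0.1) (0.0995 and 0.113). Over 18 alternatives the adjusted p of SKA3 ran from 2.23e-06 to 0.151 and its net value from 1.60 to 2.0. That of CLCA2 ran from -3.62 to -1.38, with adjusted p-values of 1.37e-05 to 0.151, and was nearest to 0 with limma on log2(FPKM + 1), where it is on the scale of that pseudocount.

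By smallest net p, and at a mean log2 CPM of at least 2 with the same sign for each hairpin, 20 genes were taken, of which 11 were higher and 9 lower. In all 11 higher genes the induced parental library was the lowest of the 8 (21.4% of all genes tested), and in 9 of them the 3 induced hairpin libraries also lay above the other 5 (13.5% of all genes tested). For these 11 the parental ratio was larger in size than the hairpin effect. The genes were chosen by a value that the induced parental library enters, so these counts only describe the choice. Of the 11, CLSPN, FEN1 and CDC6 were in the list of S phase and replication genes and SPC25 was in that of mitosis and the kinetochore. The other 7 were in no list: SKA3, the kinetochore protein ZWINT, CDCA3, the histone H2AFX, the transcription factor MYBL2, the RNA helicase DDX39A and the lysosomal disease gene CLN6. Apart from SKA3 their adjusted net p lay between 0.0653 and 0.0776, so none of the 10 passed the threshold. With the derived line as a block, 18 of the 20 genes were called, at adjusted p-values of 0.0154 to 0.0425, and H2AFX and C8orf4 were not. That fit used the same libraries by which the 20 were chosen, so its calls are no separate support.

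**Figure D2:**
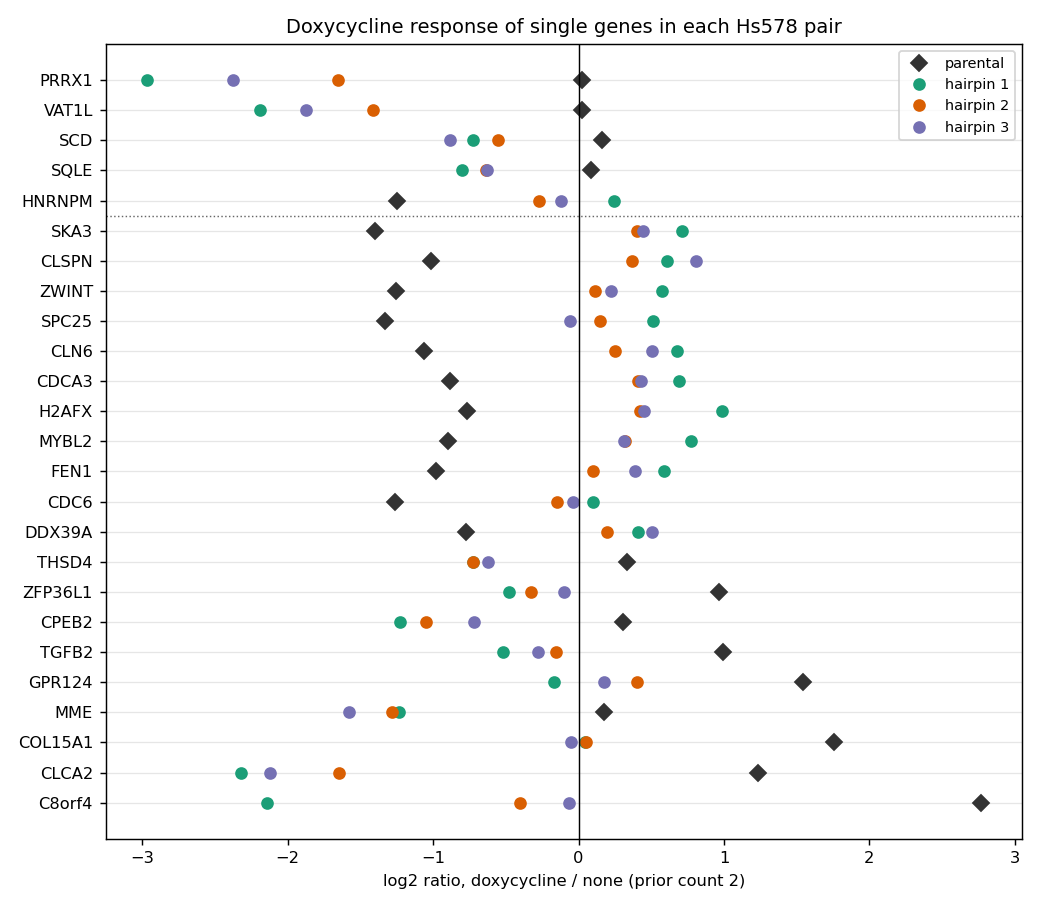
Log2 ratio of the induced to the uninduced library (prior count 2) in the parental pair (diamonds) and in each of the 3 hairpin lines (circles), for PRRX1, VAT1L, SCD, SQLE and HNRNPM (above the dotted line) and the 20 genes of smallest net p, ordered by net value. In the higher genes the parental diamond lies left of 0 and of all 3 circles, and in the lower genes it lies to the right of them.

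Of the 37 genes of S phase and replication tested, 32 had a higher net value at an unadjusted p under 0.05 and none a lower one, against 7.75% higher in all genes. All 37 were lowest in the induced parental library, against 21.4% of all genes. The list had a median net value of 0.91, beside a median hairpin effect of 0.11 and a median parental ratio of -0.77; over all genes tested these medians were 0.02, -0.01 and -0.03. The median ratios in hairpins 1, 2 and 3 were 0.23, -0.06 and 0.00. Of the 37 genes, 7 rose in the hairpin lines and none fell by the hairpin test, beside 15% and 15.6% of all genes tested. The share that rose is near that of all genes. With the line as a block 7 rose and 1, POLA1, fell. The uninduced hairpin lines differed from the uninduced parental library by a median of only 0.01, and the induced ones from the induced parental library by 0.92.

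CLSPN, the checkpoint mediator claspin, stood in parental cells at 51.3 CPM without and 25.4 CPM with doxycycline, and in the hairpin lines at 53.2, 52.6 and 51.8 CPM uninduced and 81.1, 67.8 and 90.9 CPM induced. It rose in the hairpin lines by 0.61 (SE 0.11, adjusted p = 0.00379), and its net value was 1.62 (SE 0.23, adjusted p = 0.0653, or 0.0305 with the line as a block). FEN1, the flap endonuclease of lagging-strand synthesis, stood in parental cells at 55.9 CPM without and 28.3 CPM with doxycycline and in the hairpin lines at 57.4, 65.4 and 61.9 CPM uninduced and 86.5, 70.1 and 81.1 CPM induced. CDC6, which loads the replicative helicase, differed from both in that the hairpin lines were level, at 54.9, 51.2 and 53.6 CPM uninduced and 58.9, 46.3 and 52.3 CPM induced. Its parental levels were 50.9 CPM without and 21.2 CPM with doxycycline, and its net value was 1.24 (SE 0.22, adjusted p = 0.0759, or 0.0403 with the line as a block). Among the replication genes of next smallest p, GINS2, MCM3 and MCM10 had net values of 1.34, 0.99 and 1.47, with adjusted p-values of 0.0819 to 0.0833 (MCM10 was called with the block, at 0.0403). Their hairpin effects lay between -0.05 and 0.26 and none was called.

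Of the 36 genes of mitosis and the kinetochore, 30 had a higher net value at an unadjusted p under 0.05 and none a lower one, and 35 were lowest in the induced parental library. Its genes gave a median net value of 0.79, beside a median hairpin effect of -0.09 and a median parental ratio of -0.92. With limma on log2 FPKM the count was 18 of 36. In the hairpin lines 2 genes rose, AURKB and UBE2C, and 1 fell, ECT2 (5 with the line as a block). AURKB, the kinase of the chromosomal passenger complex, stood in parental cells at 56.02 CPM without and 39.5 CPM with doxycycline, and in the hairpin lines at 51.6, 57.01 and 59.9 CPM uninduced and 87.5, 77.7 and 77.3 CPM induced. SPC25, a subunit of the NDC80 kinetochore complex, stood in parental cells at 28.2 CPM without and 11.1 CPM with doxycycline and in the hairpin lines at 26.02, 24.9 and 28.1 CPM uninduced and 37.2, 27.6 and 27.05 CPM induced. AURKA and BIRC5 (survivin) had net values of 1.13 and 1.01 beside hairpin effects of 0.00 and 0.03.

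The promoters of 4 genes among the 20 of smallest net p are shown, in each of which the induced parental library was the lowest. Each stretch runs from 150 bases before to 10 after the annotated start, 5′ to 3′ on the gene's own strand, from RefSeq on GRCh38.p14. CLSPN and CDC6 belong to the replication list. SKA3 and CDCA3, a mitotic entry factor, belong to neither list. Capitals mark matches on either strand to TTCCCGC, an E2F-type motif, to TTTGAA, the core of the cell cycle homology region, or to CCAAT.
CLSPN (chr1:35769969-35770128, minus strand): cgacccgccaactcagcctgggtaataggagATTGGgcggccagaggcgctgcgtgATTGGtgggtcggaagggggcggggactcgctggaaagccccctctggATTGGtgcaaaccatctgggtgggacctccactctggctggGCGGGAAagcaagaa
CDC6 (chr17:40287729-40287888, plus strand): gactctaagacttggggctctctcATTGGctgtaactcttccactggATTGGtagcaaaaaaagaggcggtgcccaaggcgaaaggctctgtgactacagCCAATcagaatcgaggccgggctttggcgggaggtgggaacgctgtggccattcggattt
SKA3 (chr13:21176543-21176702, minus strand): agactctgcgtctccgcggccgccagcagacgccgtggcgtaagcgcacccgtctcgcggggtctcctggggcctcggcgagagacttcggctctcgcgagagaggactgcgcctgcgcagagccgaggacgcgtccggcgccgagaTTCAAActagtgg
CDCA3 (chr12:6851277-6851436, minus strand): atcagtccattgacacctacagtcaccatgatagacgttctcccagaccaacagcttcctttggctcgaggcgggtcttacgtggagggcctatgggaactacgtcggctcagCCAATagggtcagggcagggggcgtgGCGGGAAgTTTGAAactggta

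In these stretches CLSPN held 1 match to TTCCCGC and 3 to CCAAT, CDC6 held 3 to CCAAT, SKA3 held 1 to TTTGAA, and CDCA3 held 1 to each. In windows of 300 bases (250 before to 50 after the start), TTCCCGC was present in 16 of the 33 replication genes with a promoter in the table (48.5%) and in 3 of 29 mitotic genes (10.3%), beside 6.55% of all 35116 promoters. TTTGAA was present in 1 of 33 replication genes (3.03%) and in 21 of 29 mitotic genes (72.4%), beside 15.2% of all promoters. CCAAT was present in 18 of 33 (54.5%) and 22 of 29 (75.9%), beside 34.6%. The homeodomain core TAATTA was in none of either list, beside 4.84% of all promoters. The shares of all promoters were not limited to 1 promoter per gene or to the genes tested, unlike those of the lists. The sets are therefore unlike, and no difference between them was tested. These are matches of letters only.

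HNRNPM, a splicing regulator known to act in epithelial-mesenchymal transition, had a net value that came from the parental ratio. It stood in parental cells at 313 CPM without and 131 CPM with doxycycline. The hairpin lines stood at 309, 348 and 321 CPM uninduced and 366, 288 and 296 CPM induced, with no hairpin change called, at -0.04 (SE 0.11, adjusted p = 0.797). The parental ratio was -1.25 and the net value 1.21 (SE 0.23, adjusted p = 0.0789, or 0.0594 with the line as a block). Of 24 hnRNP genes, 7 had a higher net value at an unadjusted p under 0.05 and none a lower one, and 17 were lowest in the induced parental library. Over the list this made a median net value of 0.32, beside a median hairpin effect of 0.03 and a median parental ratio of -0.29, and the count of 7 came to 4 without hairpin 3 or without its uninduced library.

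Of 24 SR proteins and other splicing regulators, 9 had a higher net value at that p and none a lower one. By sign alone, 13 net values were higher and 11 lower. In the hairpin lines 1 gene rose and 5 fell. The members had a median net value of 0.17, beside a median hairpin effect of 0.00 and a median parental ratio of -0.28. SRSF1 stood in parental cells at 282 CPM without and 141 CPM with doxycycline and in the hairpin lines at 255, 269 and 252 CPM uninduced and 274, 225 and 245 CPM induced. SRSF6 and SRSF2 had net values of 0.82 and 0.90 and parental ratios of -1.03 and -0.80. Of 24 subunits of the SWI/SNF chromatin remodeller 6 were higher and none lower, with a median net value of 0.16, beside a median hairpin effect of 0.04 and a median parental ratio of -0.18. PBRM1 among them stood in parental cells at 156 CPM without and 81.03 CPM with doxycycline, and at 149, 125 and 128 CPM uninduced and 129, 100.2 and 101 CPM induced in the hairpin lines. None of these genes passed the adjusted threshold.

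SCD and SQLE had net values that came from the hairpin side. SCD, the stearoyl-CoA desaturase that makes monounsaturated fatty acids, stood in parental cells at 3043 CPM without and 3399 CPM with doxycycline. The hairpin lines stood at 3299.9, 2989.9 and 3019 CPM uninduced and 1999, 2036 and 1639 CPM induced, and SCD fell there by the hairpin test, with -0.71 (SE 0.12, adjusted p = 0.00271). The net value was -0.87 (SE 0.24, adjusted p = 0.152). SQLE, the squalene epoxidase of sterol synthesis, stood in parental cells at 327 CPM without and 348 CPM with doxycycline, and in the hairpin lines at 358, 301 and 333 CPM uninduced and 206, 193 and 215 CPM induced. It fell in the hairpin lines, with -0.69 (SE 0.10, adjusted p = 0.00143), and its net value was -0.78 (SE 0.20, adjusted p = 0.131). For both genes the 3 induced hairpin libraries lay below all 5 others.

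The cholesterol synthesis list divided when the parental pair was subtracted. Of its 25 genes, 14 fell and 2 rose in the hairpin lines, while at an unadjusted p under 0.05 the net value was lower for 7 and higher for 2. The list had a median net value of -0.21, beside a median hairpin effect of -0.36 and a median parental ratio of -0.03. INSIG1, which holds the sterol-sensing complex in the endoplasmic reticulum, fell in the hairpin lines and had a net value of -0.82 (SE 0.19, adjusted p = 0.113) beside a parental ratio of 0.29. HMGCS1 and MSMO1 fell too and had net values of -0.64 and -0.77. For LSS and CYP51A1, which also fell in the hairpin lines, the parental ratios were -0.57 and -0.40 and the net values 0.06 and -0.12.

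Of 19 genes of fatty acid synthesis and desaturation, 7 fell and 1 rose in the hairpin lines. At an unadjusted p under 0.05 the net value was lower for 3, SCD, ACSS2 and FADS2, and higher for none. FASN, the fatty acid synthase, fell in the hairpin lines from 742, 617 and 670.2 to 489.5, 417 and 402 CPM, and stood in parental cells at 668 CPM without and 535 CPM with doxycycline, which left a net value of -0.31 (SE 0.23, adjusted p = 0.557). Its genes gave a median net value of -0.11, beside a median hairpin effect of -0.24 and a median parental ratio of -0.22.

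Integrins, the receptors that tie cells to matrix, were lower on the net scale for 9 of 16 genes at an unadjusted p under 0.05 and higher for none, against 6.49% lower in all genes. Over the list this made a median net value of -0.64, beside a median hairpin effect of -0.55 and a median parental ratio of 0.19. In the hairpin lines 9 fell and 1, ITGA5, rose. ITGB1, the common beta subunit, stood in parental cells at 1058 CPM without and 1085 CPM with doxycycline and in the hairpin lines at 1052, 914 and 1007 CPM uninduced and 664, 635 and 631 CPM induced. It fell in the hairpin lines, and its net value was -0.66 (SE 0.20, adjusted p = 0.182). ITGA7, a laminin-binding subunit and the integrin of smallest net p, stood in parental cells at 18.7 CPM without and 39.8 CPM with doxycycline, and in the hairpin lines at 23.5, 20.4 and 23.6 CPM uninduced and 16.1, 21.2 and 13.2 CPM induced, so its net value of -1.52 (SE 0.31, adjusted p = 0.0833) came mainly from the parental ratio of 1.09. ITGB4, the hemidesmosomal beta subunit, was low, with 2.04 CPM without and 6.13 CPM with doxycycline in parental cells and 2.504, 3.88 and 2.65 CPM uninduced and 1.41, 2.29 and 0.657 CPM induced in the hairpin lines, and had a net value of -2.69. ITGA2 and ITGA4 fell in the hairpin lines but stood at parental ratios of -1.22 and -1.10, with net values of -0.47 and -0.16. With limma on log2 FPKM the count was 5 of 16.

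**Figure D3:**
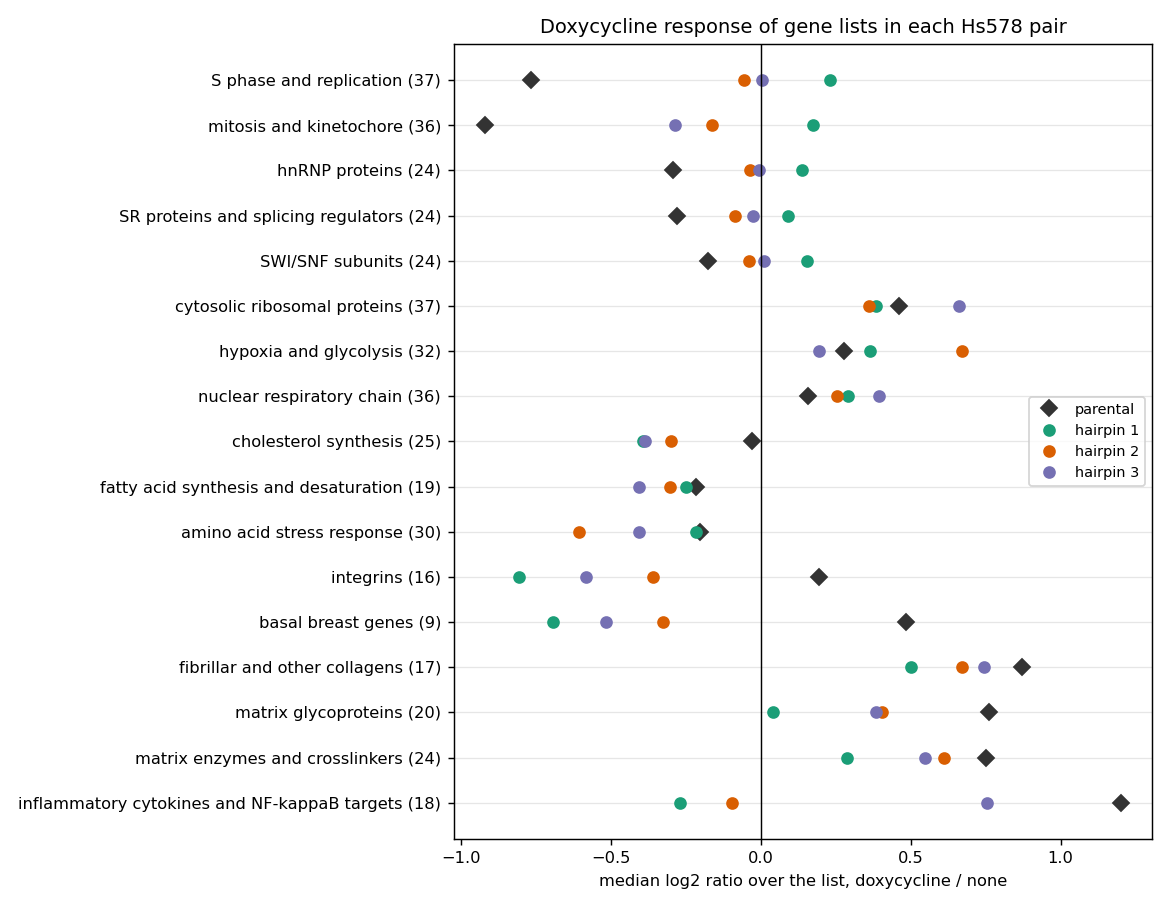
Median log2 ratio of induced to uninduced library over each gene list (number of genes tested in brackets), for the parental pair (diamonds) and hairpins 1, 2 and 3 (circles). The parental diamond lies far left of the circles for replication and mitosis, right of them for integrins, matrix and inflammatory genes, and among them for ribosomal proteins.

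Among the 9 genes on the lower side of the 20, 4 had a hairpin effect larger in size than the parental ratio: CLCA2, CPEB2, THSD4 and MME. MME, the surface peptidase neprilysin (CD10), stood in parental cells at 67.00 CPM without and 75.6 CPM with doxycycline, and in the hairpin lines at 56.7, 51.4 and 48.9 CPM uninduced and 23.96, 21.01 and 16.3 CPM induced. It fell in the hairpin lines, with -1.36 (SE 0.14, adjusted p = 0.00036), and its net value was -1.53 (SE 0.26, adjusted p = 0.0693, or 0.0305 with the line as a block). CPEB2, a regulator of mRNA polyadenylation and translation, stood in parental cells at 63.9 CPM without and 79.2 CPM with doxycycline and in the hairpin lines at 55.5, 51.01 and 46.8 CPM uninduced and 23.6, 24.6 and 28.4 CPM induced. It fell in the hairpin lines, with -0.999 (SE 0.11, adjusted p = 0.000451), and its net value was -1.31 (SE 0.21, adjusted p = 0.0693, or 0.0425 with the line as a block). THSD4, a matrix protein of microfibrils, fell from 82.9, 85.8 and 81.2 to 49.97, 51.7 and 52.8 CPM and stood in parental cells at 80.6 CPM without and 101 CPM with doxycycline, with a net value of -1.02 (SE 0.17, adjusted p = 0.0693, or 0.0403 with the line as a block). In all 9 lower genes the induced parental library was the highest of the 8 (19.4% of all genes tested), which again only describes genes chosen by their net value.

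The other 5 had the larger ratio on the parental side. GPR124, a receptor of vascular development also called ADGRA2, stood in parental cells at 29.3 CPM without and 85.5 CPM with doxycycline and in the hairpin lines at 33.5, 29.8 and 30.02 CPM uninduced and 29.7, 39.3 and 33.9 CPM induced. COL15A1, a basement membrane collagen, stood in parental cells at 38.9 CPM without and 132 CPM with doxycycline and in the hairpin lines at 25.6, 36.96 and 34.1 CPM uninduced and 26.4, 38.4 and 32.9 CPM induced. Neither had a called hairpin effect. The net value was -1.40 (SE 0.23, adjusted p = 0.0693, or 0.0403 with the line as a block) for GPR124 and -1.75 (SE 0.31, adjusted p = 0.0776, or 0.0154 with the line as a block) for COL15A1. TGFB2, a ligand of the TGF-beta receptors, stood in parental cells at 209.9 CPM without and 418 CPM with doxycycline, and in the hairpin lines at 219, 172 and 190.5 CPM uninduced and 153, 154 and 157 CPM induced. It fell in the hairpin lines by a small amount, with -0.33 (SE 0.10, adjusted p = 0.0341), and its net value was -1.32 (SE 0.21, adjusted p = 0.0678, or 0.0403 with the line as a block). ZFP36L1, which promotes decay of AU-rich mRNAs, had a parental ratio of 0.97, a hairpin effect of -0.31 (SE 0.11, adjusted p = 0.0486) and a net value of -1.28 (SE 0.22, adjusted p = 0.0693, or 0.0403 with the line as a block). C8orf4, a small regulator also known as TCIM, had the most negative net value of the 20, -3.74 (SE 0.63, adjusted p = 0.0718), with hairpin ratios of -2.14, -0.40 and -0.06 and a parental ratio of 2.77 at levels of 1.21 to 15.7 CPM.

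Inflammatory cytokines and NF-kappaB targets had a median net value of -1.14, beside a median hairpin effect of 0.14 and a median parental ratio of 1.20. Of 18 genes, 5 were lower on the net scale at an unadjusted p under 0.05 and none higher, and 9 were highest in the induced parental library. The count came to 12 without hairpin 3 and 9 without its uninduced library. ICAM1, an adhesion receptor for leukocytes, stood in parental cells at 2.91 CPM without and 13.9 CPM with doxycycline and in the hairpin lines at 3.65, 4.06 and 3.02 CPM uninduced and 5.24, 4.58 and 6.19 CPM induced. It rose in the hairpin lines, with 0.59 (SE 0.19, adjusted p = 0.0339), so its net value of -1.67 (SE 0.36, adjusted p = 0.101) had the opposite sign to its hairpin effect. TNFAIP3 and RELB, both NF-kappaB targets, had parental ratios of 1.53 and 1.72 and net values of -1.46 and -1.17.

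Collagen, matrix glycoprotein and matrix enzyme genes had a positive median on both sides, and the parental one was the larger. Of 17 collagens, 10 rose in the hairpin lines and none fell, while on the net scale 3 were lower at an unadjusted p under 0.05, COL6A3, COL18A1 and COL1A2, and none higher. COL15A1, described above with its lower net value, was not among the 17. The members had a median net value of -0.33, beside a median hairpin effect of 0.63 and a median parental ratio of 0.87. COL1A2 stood in parental cells at 2201 CPM without and 6924 CPM with doxycycline, and in the hairpin lines at 2602, 2064 and 2484 CPM uninduced and 3768, 4791 and 5456 CPM induced. The count of 3 came to 5 without hairpin 3, 1 without its uninduced library and 7 without its induced library. Of 24 matrix enzymes and crosslinkers 4 were lower on the net scale and none higher, with a median net value of -0.24, beside a median hairpin effect of 0.50 and a median parental ratio of 0.75, and MMP14 and LOXL1 had net values of -0.75 and -0.64 beside parental ratios of 1.14 and 1.28. That count came to 7 without hairpin 3. Of 20 matrix glycoproteins 4 were lower on the net scale, THBS2, LAMA4, LAMB1 and LAMC1, and 2 were higher, TNC and TGFBI, with a median net value of -0.41, beside a median hairpin effect of 0.28 and a median parental ratio of 0.76. The 4 came to 6 without hairpin 3, 8 without its induced library, 2 without the uninduced library of any 1 hairpin and 2 with limma on log2 FPKM. IGFBP5, an insulin-like growth factor binding protein, stood in parental cells at 85.02 CPM without and 441 CPM with doxycycline. In the hairpin lines it stood at 92.9, 63.8 and 71.3 CPM uninduced and 49.5, 87.4 and 57.7 CPM induced. Its net value was -2.61 (SE 0.43, adjusted p = 0.0789, or 0.184 with the line as a block).

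The largest called hairpin effects were set beside their net values. The 6 genes that rose most were CA9, IL32, TAGLN, COL1A1, TGFBI and TNC, and all 6 also had a parental ratio above 0. COL1A1, the fibrillar collagen, stood in parental cells at 1914 CPM without and 6115 CPM with doxycycline, and in the hairpin lines at 2188, 1917 and 2024 CPM uninduced and 6316, 8059 and 11346 CPM induced. The hairpin effect was 2.07 (SE 0.19, adjusted p = 0.000311) and the net value 0.39 (SE 0.36, adjusted p = 0.66), with an interval of -0.40 to 1.19. CA9, a carbonic anhydrase of hypoxic cells, had a hairpin effect of 3.05 (SE 0.49, adjusted p = 0.00504), a parental ratio of 2.86 and a net value of 0.13 (SE 0.98, adjusted p = 0.967). IL32, a cytokine, had corresponding values of 2.52, 1.81 and 0.69. TGFBI and TNC, both matrix glycoproteins, had net values of 0.94 (SE 0.29, adjusted p = 0.189) and 1.14 (SE 0.42, adjusted p = 0.266) beside parental ratios of 0.999 and 0.74. For TAGLN, an actin-binding protein, the net value was 1.35 (SE 0.74, adjusted p = 0.461) beside a parental ratio of 0.88. None of the 6 net values passed the threshold.

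The 6 genes that fell most were ATF3, IGFBP1, NR4A3, PRRX1, CALCRL and CLCA2. IGFBP1, a secreted binding protein of insulin-like growth factors, stood in parental cells at 14.5 CPM without and 3.88 CPM with doxycycline, and in the hairpin lines at 9.91, 17.1 and 12.3 CPM uninduced and 2.17, 3.13 and 1.697 CPM induced, with a net value of -0.62 (SE 0.49, adjusted p = 0.594). The immediate early genes ATF3 and NR4A3 had net values of -2.30 (SE 1.36, adjusted p = 0.507) and -1.36 (SE 0.37, adjusted p = 0.152). CALCRL, the receptor of adrenomedullin and calcitonin gene-related peptide, had a net value of -1.43 (SE 0.51, adjusted p = 0.236). Their parental ratios were -0.59, -1.87, -1.02, 0.02, -0.82 and 1.23 in that order, so that of PRRX1 was nearest to 0. The hairpin effect of ATF3 was -2.90 (SE 0.70, adjusted p = 0.0315, or 0.0869 with the line as a block). Its uninduced levels differed between hairpins 1, 2 and 3, at 49.9, 29.6 and 8.91 CPM, beside 3.64, 3.59 and 4.54 CPM induced. Parental levels of ATF3 were 11.4 CPM without and 7.57 CPM with doxycycline. PRRX2, the paralogue of PRRX1, had a hairpin effect of 0.77 (SE 0.34, adjusted p = 0.126), a parental ratio of 0.79 and a net value of -0.03 (SE 0.67, adjusted p = 0.99).

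**Figure D4:**
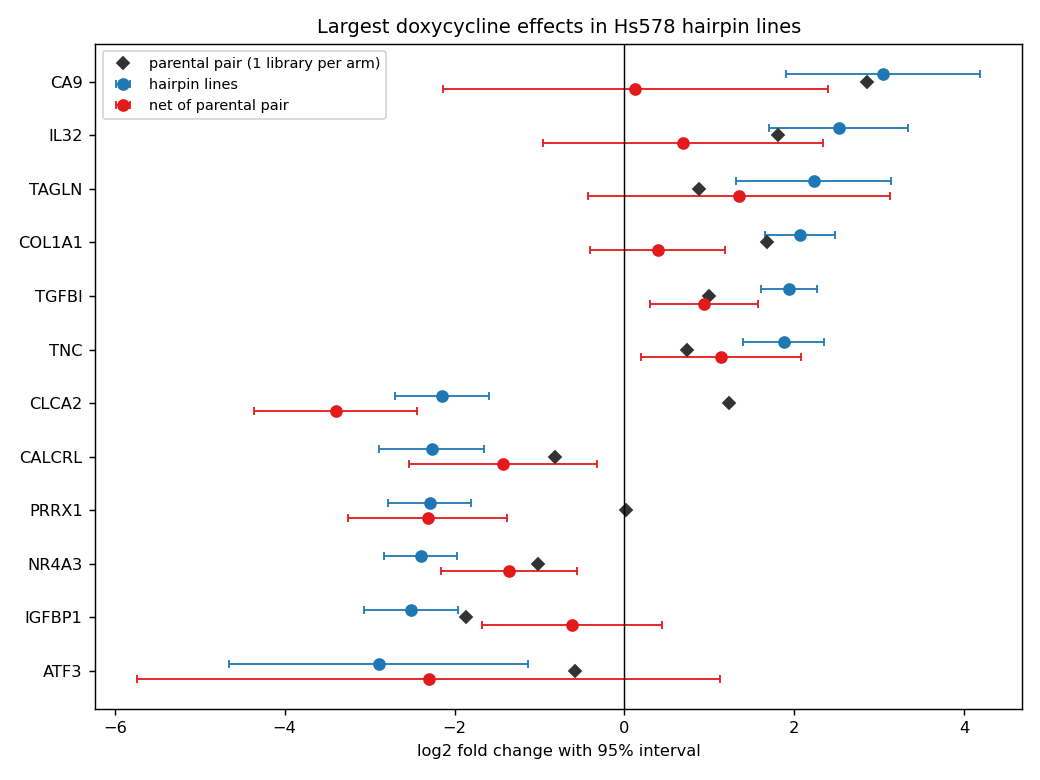
Log2 fold change with 95% interval of the doxycycline effect in the hairpin lines (blue) and of the net value (red), with the parental log2 ratio as a diamond, for the 6 genes per direction with the largest called hairpin effect. The net intervals of CA9, IL32, TAGLN, COL1A1, ATF3 and IGFBP1 include 0, while those of PRRX1, CLCA2, NR4A3 and CALCRL lie below it and those of TGFBI and TNC above it.

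Ribosomal proteins rose in the hairpin lines and stood higher in the induced parental library by about the same ratio. Of 37 genes of the cytosolic ribosome, 34 rose in the hairpin lines and none fell, yet no gene had a net p under 0.05, before any adjustment. The list had a median net value of 0.03, beside a median hairpin effect of 0.47 and a median parental ratio of 0.46. That count of 0 came to 2 without hairpin 1 and 3 without its induced library. The 13 genes of the mitochondrial genome had a median net value of 0.23, beside a median hairpin effect of 0.84 and a median parental ratio of 0.65, and 11 rose in the hairpin lines (7 with the line as a block). On the net scale 3 of the 13 were higher at an unadjusted p under 0.05 (1 with the block) and none lower, beside 7.75% higher in all genes tested. The median ratios of the 13 genes were 0.21, 0.91 and 1.44 in hairpins 1, 2 and 3, so hairpin 1 lay below the parental pair and hairpin 3 above it. Of 36 nuclear respiratory chain genes, 20 rose in the hairpin lines and 1 was higher on the net scale at an unadjusted p under 0.05, COX7B (4 with the block). That list had a median net value of 0.23, beside a median hairpin effect of 0.34 and a median parental ratio of 0.16. By sign alone, 30 of its net values were higher and 6 lower. In 25 of its 36 genes the 3 induced hairpin libraries lay above the other 5, beside 13.5% of all genes tested. The part of the libraries' mitochondrial share in these values was not tested.

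Hypoxia and glycolysis genes rose in the hairpin lines for 17 of 32 and fell for 3. On the net scale 1 was higher and 2 were lower at an unadjusted p under 0.05, beside 7.75% and 6.49% of all genes tested. The list had a median net value of 0.11, beside a median hairpin effect of 0.42 and a median parental ratio of 0.28. Its median ratios in hairpins 1, 2 and 3 were 0.37, 0.67 and 0.19. SLC7A11, the cystine transporter, fell in the hairpin lines from 410.2, 413 and 388 to 207, 158 and 153 CPM. It stood in parental cells at 541 CPM without and 153 CPM with doxycycline, and its net value of 0.60 (SE 0.24, adjusted p = 0.291) had the opposite sign to the hairpin effect of -1.23 (SE 0.12, adjusted p = 0.00036). The 30 genes of the amino acid stress response had a median net value of -0.38, beside a median hairpin effect of -0.38 and a median parental ratio of -0.20. Of them 7 were lower on the net scale at that p, including DDIT3 (-0.98) and SESN2 (-0.77), and 2 were higher, ATF5 (1.08) and SLC7A11. That count of 7 was 12 with the block and ran from 4 to 14 over leaving out libraries, with 14 without the uninduced library of hairpin 1, 12 without hairpin 1 and 4 without hairpin 3 or the uninduced library of hairpin 2 or 3.

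Of 33 mesenchymal factors 3 were lower on the net scale at an unadjusted p under 0.05, and none was higher, with a median net value of -0.02, beside a median hairpin effect of -0.09 and a median parental ratio of 0.24. That share is near the 6.49% lower in all genes tested. Of the 9 basal breast genes 4 were lower, ITGB4, FOXC1, TP63 and ITGA6, which share 2 genes with the integrin list. FOXC1, a forkhead factor of basal-like breast cancer, stood in parental cells at 23.7 CPM without and 30.4 CPM with doxycycline and in the hairpin lines at 27.98, 24.7 and 23.1 CPM uninduced and 16.8, 17.3 and 20.5 CPM induced. KRT14, the basal keratin, rose in the hairpin lines from 5.93, 6.398 and 5.62 to 8.56, 22.3 and 21.4 CPM and stood in parental cells at 5.97 CPM without and 29.8 CPM with doxycycline. Of the 9 epithelial genes tested 1 was lower and none higher. Antioxidant genes under NRF2 had 5 lower and 1 higher of 23, with NQO1 at -0.98 (SE 0.22, adjusted p = 0.107) beside a parental ratio of 0.67, and the 5 came to 3 without hairpin 3 or the uninduced library of hairpin 2. In the TGF-beta list 5 of 25 were lower and 1, ID3, was higher.

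The same contrast in TT642, whose libraries the Hs578 contrast does not use, called no gene of 12814 by edgeR (0%), with 127 genes (0.991%) at an unadjusted p under 0.05. DESeq2 also called none, with 50 at an unadjusted p under 0.05. The edgeR count of 127 came to 308 with the derived line as a block, 60 without hairpin 1, 502 without hairpin 2 and 213 without the induced library of hairpin 2, with no call in any of them. TT642 libraries of the same hairpin number deviated alike from their group means (Pearson's r 0.50, 0.45 and 0.47). The fit without the block leaves that shared part in the residual spread. TT642 is labelled as rhabdoid tumor cells, although the series text speaks of breast lines. Levels were scaled within each line. PRRX1 stood in TT642 parental cells at 1602 CPM without and 1641 CPM with doxycycline. In the hairpin lines it stood at 1296, 1517 and 1399 CPM uninduced and 284, 197 and 542 CPM induced. Its net value there was -2.08 (SE 0.78, adjusted p = 0.9999) and was not called. As the contrast did not call the target of the hairpins itself, its lack of calls in TT642 does not show a lack of effects. The difference between the lines was -0.25 with an interval of -2.42 to 1.93.

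The cell-cycle lists did not have the Hs578 pattern in TT642. Their median net values were -0.25 for replication and -0.34 for mitosis, with median parental ratios of 0.01 and 0.08 and with 3 and 2 genes lower (0.429% of all genes tested in TT642) and none higher at an unadjusted p under 0.05. SKA3 stood in TT642 parental cells at 6.78 and 6.66 CPM, and its net value differed between the lines by 2.31 (SE 0.36, adjusted p = 0.0946). CDC6 differed by 1.74 (SE 0.26, adjusted p = 0.0946), and these were the smallest adjusted p-values for the difference among the 20 genes. No gene of 14035 was called for the difference (0%), with 1073 (7.65%) at an unadjusted p under 0.05, and DESeq2 called 24. HNRNPM differed by 1.19 (adjusted p = 0.264) and had a TT642 net value of 0.01. SCD and SQLE had TT642 net values of -0.27 and -0.18. The differences were -0.60 (interval -1.26 to 0.05, adjusted p = 0.673) and -0.60 (-1.10 to -0.10, adjusted p = 0.578). These intervals are not adjusted for the number of genes, and neither difference was called.

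Across the 11749 genes tested in both lines, the net values had a Pearson correlation of -0.01 and a Spearman correlation of -0.05, and 48.2% had the same sign. Genes are not independent replicates. Among the 1686 of these genes with an unadjusted net p under 0.05 in Hs578, 46.0% had the same sign in TT642. Of the 20 genes of smallest net p in Hs578, 19 were tested in TT642 and 7 had the same sign there.

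**Figure D5:**
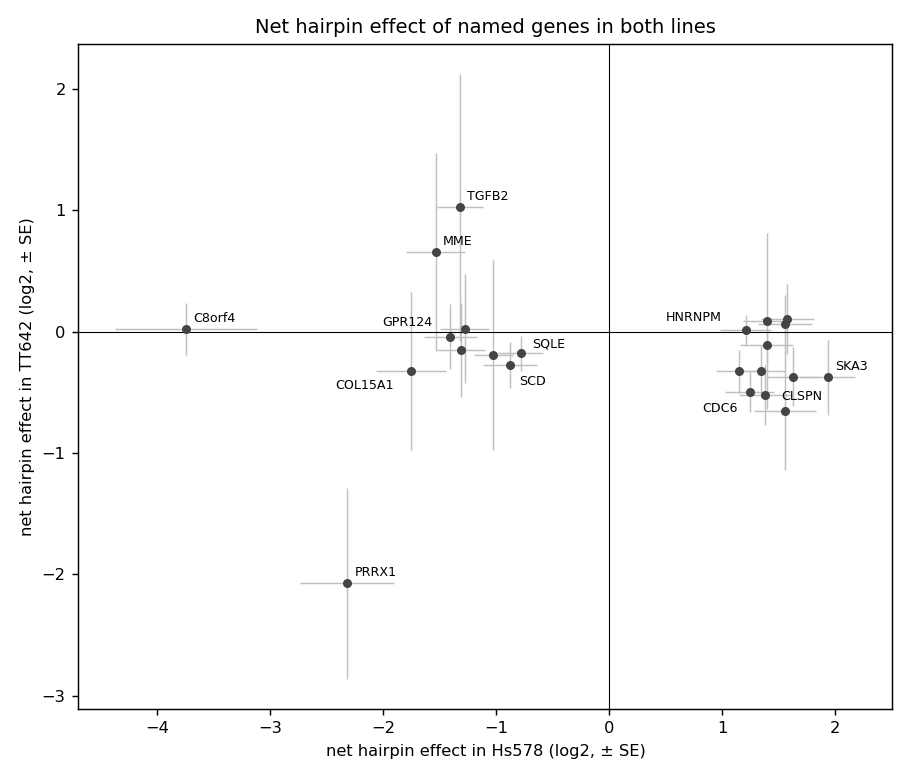
Net value (net hairpin effect on the axes) on the log2 scale (± SE) in Hs578 (horizontal) and TT642 (vertical) of PRRX1, SCD, SQLE, HNRNPM and the 20 genes of smallest net p in Hs578, for those tested in TT642. PRRX1 lies low in both lines, at -2.32 and -2.08, while the genes higher in Hs578 lie right of 0 there and, for most, at or below 0 in TT642.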

How the data were processed

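Polyadenylated RNA was sequenced from stranded TruSeq libraries made from 500 ng of total RNA, per the labels' protocols. The authors deposited raw read counts per gene symbol (20114 genes) and FPKM values (20111 genes), which scale fragments by transcript length and depth. Per the submitters' processing notes, hg19 served as the build. Neither aligner nor counter, annotation or strand setting is stated in these sources. Genes with close copies, such as ribosomal protein genes, and overlapping genes are therefore uncertain. FPKM served for the marker check and for 2 alternatives.

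The Hs578 counts were tested with edgeR 4.0.16 (R 4.3.3): TMM scaling, the default expression filter (12993 genes kept), 4 group means, robust quasi-likelihood moderation and 4 residual degrees of freedom. Standard errors were derived from the F statistic. TT642 was fitted likewise, and the difference between lines in 1 fit of all 16 libraries. Alternatives used DESeq2 1.42.0, limma 3.58.1, other scalings and filters, a block for the derived line, and leaving out libraries. The same hairpin number marks the same derived line. For deviations from the group means of libraries with the same number, Pearson's r over genes was 0.16, -0.03 and -0.01 (Hs578 hairpins 1 to 3) or 0.50, 0.45 and 0.47 (TT642). No 2 hairpin libraries of 1 group agreed within sampling noise, and other pairs were not compared. Replicates within a group carried different hairpins, and nothing says they were separate cultures, so p-values measure the spread between these samples only.

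The genes and the 38 gene lists were chosen with earlier results of these data known. The text names PRRX1, VAT1L, SCD, SQLE, HNRNPM and PRRX2, the called net genes filled up to 20 by smallest p (mean log2 CPM of at least 2, same sign in each hairpin), the 6 largest called hairpin effects per direction, and the member of smallest p in the 8 lists of largest median. Further list members were chosen after their values were seen. TNNT1 and TIE1, which this rule also took, had net values of -0.25 and -0.54. Some genes of the lists are not reported here.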

Additional observations from a re-analysis of the deposited data

How the results depend on the processing

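Of 41 named genes, 38 kept the sign of their net value in all 18 alternatives of the Hs578 fit and 31 were called in at least 1. Of the 41, 20 were chosen by net p with the same sign in each hairpin. Every alternative also used the same parental pair, so the count of kept signs mostly describes the choice of genes. PRRX1 was called in 3 of 18, at net values from -2.68 to -2.03 and adjusted p-values from 6.88e-07 to 0.206. SKA3 and CLCA2 each remained called in 11 of 18.

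Besides the 2 net calls, 2 were made with relative log expression scaling and with a minimum of 10 counts in 3 libraries, 0 without robust moderation (1861 at an unadjusted p under 0.05), 3 and 4 with limma on log2(FPKM + 1) and log2(FPKM + 0.1), 57 with all 16 libraries in 1 fit, 99 without a filter on low counts and 177 with DESeq2. With the replicate block for the derived line, which the shared hairpin number pairs, 36 were called. The block moved no count of calls of the other 3 comparisons by over 1.5 times. Leaving out hairpins or libraries gave 0 to 164 net calls, and 577 to 5341 for the hairpin effect. With limma on FPKM the hairpin calls split into 1020 higher and 2405 lower, or 1035 and 2426, at medians of -0.10 and -0.14 over all genes. For the difference between lines, DESeq2 called 24, limma 2 at each pseudocount, and leaving out libraries gave 0 to 2. Net calls in TT642 stayed at 0 in all its alternatives.

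The net sign turned for CA9 with limma on log2(FPKM + 1) (-0.10), with the replicate block (-0.0044), without hairpin 2 (-0.75), and without its uninduced (-0.12) or induced library (-0.50). Leaving out hairpins or libraries gave CA9 values of -0.75 to 0.56 and PRRX2 values of -0.32 to 0.30. The sign turned for TIE1 with limma at both pseudocounts (0.052 and 0.18), and for PRRX2 without hairpin 1 (0.25), its induced library (0.30) or the uninduced library of hairpin 3 (0.04). The cause of these differences was not tested. The parental libraries were not left out, since the contrast needs both, so every net value rests on this single pair. No alternative varied depth. Counts of list members under the alternatives were chosen after seeing the data.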
